A study of Mus musculus with 31 samples.

Results

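Gadd45a, Gadd45b and Gadd45g, which encode small stress sensors, and Cdkn1a, Cdkn1b and Cdkn1c, which encode the cyclin-dependent kinase inhibitors p21, p27 and p57, were followed in RNA from 20 mouse melanomas and 11 cultures of the same melanoma line. They are 6 of the 39179 gene entries of the counts table. They were selected because Gadd45a and Gadd45g responded to a topical glucocorticoid (GC) in opposite ways in these tumors. The GC responses of all members in tumors, and every comparison of Gadd45a and Gadd45g that uses tumors, are therefore described with no test. Cdkn1c between tumors and cultures is also described with no test, as it entered that fit through tumors alone. The other genotype, culture and tumor-to-culture differences are tested.

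GADD45 proteins have no enzymatic activity of their own and act by binding partners, among them the kinase MTK1 upstream of p38 and JNK, the replication clamp PCNA and p21 itself. Cells raise them after DNA damage, starvation or cytokine signals, and each gene answers to its own set of signals. The inhibitors p21, p27 and p57 bind cyclin-CDK complexes and hold cells before S phase. p21 is the classical p53 target, p27 is set largely by protein turnover, and p57 comes from an imprinted gene that the glucocorticoid receptor (GR) can induce.

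The tumors grew from 20967, a melanoma line of a C57BL/6 mouse model with the alleles Nras +LSL-G12D and Tyr::CreERT2 +/o, in which an inducible Cre recombinase under a tyrosinase promoter switches on mutant Nras. Parental cells, or a clone in which CRISPR-Cas9 had disrupted the GR gene Nr3c1 (GR KO), were injected into the skin of wild-type C57BL/6 mice, so the host cells of every tumor kept GR. Tumors were treated with control cream or with 0.05% clobetasol propionate ointment 3 times a week, to ask which effects of a GC need GR in the tumor cells. The same cells in culture received DMSO or clobetasol, at a dose that the treatment labels give as 10 µM and the library names as 1 µM.

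There were 5 tumors in each of 4 groups: parental control, parental GC-treated, GR KO control and GR KO GC-treated. The cultures formed 4 groups of 3, except for 2 parental GC-treated cultures. RNA was counted from the 3′ end of transcripts, with library totals of 15528066 to 26386770 counts in tumors (median 19693173) and 14441166 to 22463188 in cultures (median 17054739). Levels are given in CPM (counts scaled to a fixed library total), scaled by TMM (the trimmed mean of M-values) over all 31 libraries. By library totals, before TMM scaling, 3 counts correspond to 0.114 to 0.193 CPM in a tumor and 0.134 to 0.208 CPM in a culture. This covers counting error only. A gene is called where edgeR's quasi-likelihood test gives an adjusted p below 0.05 and the groups differ at least 1.5-fold. Log2 differences carry their standard error (SE).

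The edited gene was read first. Nr3c1 stood at 62.8, 57.6, 43.9, 55.9 and 50.5 CPM in parental control tumors, 54.2, 23.5, 48.4, 36.4 and 49.6 in parental GC-treated tumors, 20.3, 26.7, 31.2, 33.6 and 23.4 in the GR KO controls, and 47.3, 21.4, 57.7, 31.7 and 46.9 in GR KO GC-treated tumors. In cultures it stood at 33.9, 30.6 and 36.3 CPM with DMSO and 40.6 and 34.2 with GC in parental cells, and in GR KO cells at 25.8, 21.6 and 16.6 with DMSO, then 21.4, 22.4 and 12.9 with GC. Every GR KO culture lay below every parental culture, and every GR KO control tumor below every parental control tumor, while the GC-treated tumors overlapped. By edgeR's test the difference in control tumors was −1.02 (log2, SE 0.24, adjusted p 0.0313) and that in GC-treated cultures −0.95 (SE 0.24, adjusted p 0.0384). Both calls were fragile: the first was lost in 8 of 10 leave-outs, fits without 1 library (those of each parental control tumor, and GR KO control tumors 1, 2 and 5) and the second in 4 of 5 (each parental culture, and GR KO cultures 2 and 3). Nr3c1 was not called between genotypes in DMSO cultures (−0.67, SE 0.22, adjusted p 0.0840) or in GC-treated tumors (−0.02, SE 0.24, adjusted p 0.981). A 3′ tag outside the edited site does not check the edit. The response genes Tsc22d3 and Per1 rose with GC in parental cultures (log2 3.09 and 2.77, adjusted p 2.3e-05 and 0.000337, in 2 of 2 treated cultures) and were not called in GR KO cultures (−0.05 and −0.23). In tumors both rose with GC in parental tumors (2.34 and 2.19, adjusted p 1.6e-05 and 0.000147) and in GR KO tumors (1.77 and 1.29, adjusted p 0.000403 and 0.00744), in 5 of 5 treated tumors each time.

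Marker genes set out what the libraries hold. Of 8 melanocytic markers, Dct, Tyr, Mlana and Sox10 had no count in any culture, and Mitf was the most abundant, with sums of 3.19 to 12.9 CPM. In tumors Tyr had no count and the sum was 33.9 to 109.98 CPM, so few pigment-cell transcripts mark these cells, although the labels call them melanoma. Keratinocyte, macrophage and T-cell markers were near 0 or at 0 in cultures and present in every tumor. A member's level in a tumor therefore adds tumor cells to host cells, and in bulk RNA fewer expressing cells cannot be told from less RNA per cell.

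Among the stress sensors, Gadd45a, the member usually tied to p53 and DNA damage, differed widely between tumors. It measured 16.4, 13.1, 46.9, 26.0 and 46.5 CPM in parental control tumors and 7.88, 9.27, 10.9, 5.58 and 7.16 in parental GC-treated tumors. It measured 8.59, 11.03, 15.7, 14.0 and 12.99 CPM in GR KO control tumors and 35.1, 12.99, 27.7, 22.3 and 53.1 in GR KO GC-treated tumors. All 5 parental GC-treated tumors lay below all 5 parental controls, whereas 4 of 5 GR KO GC-treated tumors lay above every GR KO control. The fitted GC difference was −1.88 in parental tumors (log2, SE 0.37) and 1.32 in GR KO tumors (SE 0.36), and the difference between them was −3.20 (SE 0.52). Among the 15919 genes tested in tumors, 0.779% were called for GC in parental tumors (124 genes), 6.42% for GC in GR KO tumors (1022 genes) and 0.195% for the difference between these effects (31 genes). The members were chosen on these contrasts, so nothing is read from those shares.

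Gadd45g, a cytokine- and differentiation-induced member, went the other way in parental tumors. It measured 30.7, 38.3, 28.3, 30.3 and 24.9 CPM in parental controls and 81.9, 104, 79.2, 84.9 and 75.3 with GC, so all 5 treated tumors lay above all 5 controls. It measured 31.2, 44.9, 39.5, 64.3 and 47.1 CPM in GR KO controls and 35.8, 67.1, 41.9, 39.5 and 48.4 with GC, where treated tumor 2 lay above every control, control 1 lay below every treated tumor and the others overlapped. The fitted GC difference was 1.48 (log2, SE 0.20) in parental tumors and 0.07 (SE 0.20) in GR KO tumors, 1.41 apart (SE 0.28). Gadd45b, the member best known downstream of NF-kappa-B and TGF-beta, set no group of tumors apart. It measured 9.09, 8.38, 6.69, 4.68 and 4.54 CPM in parental controls, 4.04, 2.92, 2.84, 5.29 and 4.89 with GC, 6.57, 3.15, 7.39, 9.71 and 5.12 in GR KO controls and 2.29, 6.17, 7.10, 3.31 and 5.86 with GC. Its groups overlapped in every pair, with GC differences of −0.74 (SE 0.37) in parental and −0.33 (SE 0.37) in GR KO tumors.

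Genotype was compared at each treatment. Gadd45a and Gadd45g were chosen on the GC response of these same tumors, so their genotype differences are described with no test, while the other 4 members are tested. Under GC, Gadd45a levels of 5 of 5 GR KO tumors lay above all 5 parental tumors (log2 1.92, SE 0.37), and Gadd45g levels of 5 of 5 GR KO tumors lay below all 5 parental tumors (−0.85, SE 0.20). Of the 15919 genes tested in this contrast 0.634% were called (101 genes), and nothing is read from that share for Gadd45a and Gadd45g. Gadd45b was not called under GC (0.33, SE 0.37, edgeR adjusted p 0.782), with overlapping groups.

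In control tumors the order of the same genes differed. Gadd45a levels of 3 of 5 GR KO tumors lay below every parental one (log2 −1.29, SE 0.36), and Gadd45g levels of 4 of 5 GR KO tumors lay above any parental one (0.56, SE 0.20, or 0.33 with library totals), again with no test. Gadd45b did not differ beyond the spread between tumors (−0.08, SE 0.37, edgeR adjusted p 0.925).

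**Figure D1:**
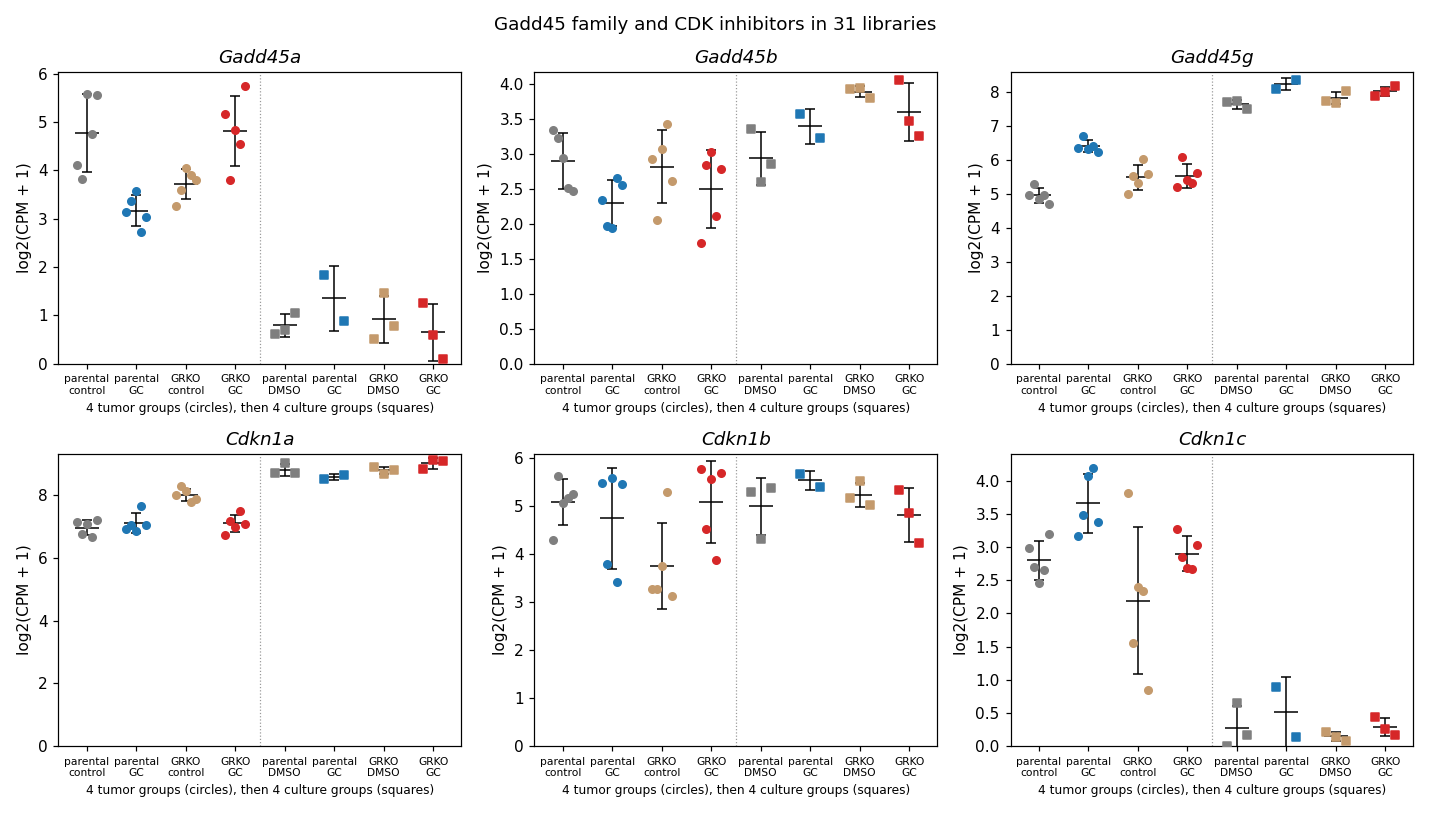
Level of each of the 6 members, as log2(CPM + 1) on the vertical axis, in every library of the 4 tumor groups (circles) and 4 culture groups (squares). Each point is a library, the horizontal line is the group mean and the bars are the SD; Gadd45a lies at or below 2.55 CPM in all 11 cultures and at or above 5.58 CPM in all 20 tumors.

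Among the kinase inhibitors, Cdkn1a, which encodes p21, was set apart by genotype in control tumors. It measured 139, 106, 134, 100.2 and 147 CPM in parental controls, 120.2, 131, 115, 202 and 131 in parental GC-treated tumors, 254, 309, 280.1, 218 and 232 in GR KO controls and 105, 144, 126, 181 and 134 in GR KO GC-treated tumors. The GR KO controls stood above all other tumors, and the other 3 groups overlapped. Cdkn1a was called in the genotype contrast of control tumors, where 2.25% of the 15919 genes tested were called (358 genes). It was higher in 5 of 5 GR KO tumors (log2 1.03, SE 0.20, edgeR adjusted p 0.0136, two-sided exact permutation p 0.00794). Scaled by library totals, the difference was 0.76, while the median of all genes shifted by −0.25. With the number of genes expected at equal depth as an added term, an alternative chosen after seeing the data, it was 0.75 and not called (adjusted p 0.0906, in a range of 9.8e-05 to 0.0906 over 20 alternatives, 10 other settings and 10 leave-outs). Under GC the genotypes were not told apart by Cdkn1a (−0.00, SE 0.20, adjusted p 0.998, exact permutation p 0.960), and scaling by library totals turned the sign (0.04). The GC difference, untested, was 0.16 (SE 0.20) in parental tumors and −0.88 (SE 0.20) in GR KO tumors, where 5 of 5 treated tumors lay below all 5 controls.

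Cdkn1b, which encodes p27, varied widely within groups. It measured 18.8, 48.8, 32.5, 35.1 and 37.3 CPM in parental controls and 44.0, 12.9, 47.3, 9.77 and 43.2 with GC. It measured 8.66, 8.75, 12.6, 38.2 and 7.80 CPM in GR KO controls and 53.8, 22.1, 46.5, 13.6 and 51.1 with GC. Parental GC-treated tumors 2 and 4 and GR KO GC-treated tumors 2 and 4 were low in their groups, and GR KO control tumor 4 was high in its own. The genotype difference in control tumors was −1.22 (log2, SE 0.47, edgeR adjusted p 0.151), with 4 of 5 GR KO tumors below every parental one (two-sided exact permutation p 0.0397). Without GR KO control tumor 4 it was −1.87 and called (adjusted p 0.0138, in a range of 0.0138 to 0.892 over 20 alternatives), and with genes expected at equal depth as a term, chosen after seeing the data, it was −0.30 (adjusted p 0.892). Under GC the genotypes overlapped (0.28, SE 0.46, adjusted p 0.853). The untested GC differences were −0.15 (SE 0.46) in parental and 1.36 (SE 0.47) in GR KO tumors.

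Cdkn1c, which encodes p57, measured 6.94, 5.47, 4.53, 5.33 and 8.18 CPM in parental controls and 8.04, 10.2, 15.9, 17.3 and 9.43 with GC. It measured 13.1, 1.93, 4.27, 4.08 and 0.793 CPM in GR KO controls and 8.72, 6.23, 5.41, 5.37 and 7.20 with GC. With GC, 4 of 5 parental tumors lay above every parental control, while 4 of 5 GR KO controls lay below every treated GR KO tumor and control 1 lay above all of them. The untested GC difference was 0.99 (log2, SE 0.47) in parental and 0.48 (SE 0.47) in GR KO tumors. Cdkn1c was not called between genotypes in control tumors (−0.36, SE 0.47, edgeR adjusted p 0.698), where 4 of 5 GR KO tumors lay below every parental one and tumor 1 lay above all of them (two-sided exact permutation p 0.278). Without GR KO control tumor 1 this difference was −1.17 and not called (adjusted p 0.155), and over 20 alternatives it ran from −1.17 to −0.08. Under GC it was lower in 4 of 5 GR KO tumors than in any parental tumor, which was not called either (−0.87, SE 0.47, adjusted p 0.485, two-sided exact permutation p 0.0159). The untested difference between the GC effects of parental and GR KO tumors was 0.51 for Cdkn1c, −1.50 for Cdkn1b, 1.03 for Cdkn1a and −0.41 for Gadd45b.

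The reading of Cdkn1b moved with library quality. The number of genes expected at 15528066 reads was 15578, 16681, 16094, 16762 and 15775 in parental controls, 16916, 15794, 16668, 15799 and 16754 in parental GC-treated tumors, 13399, 14794, 15142, 16780 and 14265 in GR KO controls, and 16651, 15561, 16655, 15155 and 16451 in GR KO GC-treated tumors. GR KO controls, apart from tumor 4, were the lowest 4 of the 20 tumors, and the tumors low in Cdkn1b were also low in genes expected. Over the 20 tumors, which share their groups, the Pearson correlation of Cdkn1b with this number was 0.872 (Spearman 0.768), 0.852 after subtracting group means and 0.868 without the 2 tumors farthest from the median. For Cdkn1a it was −0.754 (Spearman −0.743), −0.579 after subtracting group means and −0.712 without the farthest 2. The TMM factor of the fit to tumors, from 0.753 in GR KO control tumor 1 to 1.13 in GR KO GC-treated tumor 3, ran closer, on a log scale, with Cdkn1b (0.917, Spearman 0.850, 0.876 after subtracting group means, 0.928 without the farthest 2) and ran against Cdkn1a (−0.781, Spearman −0.768, −0.534 and −0.672). The CPM levels were themselves scaled by TMM, over all 31 libraries, so level and factor are not independent. Whether library quality or scaling sets these levels was not tested.

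Cell-type markers also moved with the members. The summed level of 6 keratinocyte markers, none at 0, was 1303, 1148, 1475, 1255 and 3006 CPM in parental controls, 1819, 1869, 1578, 1877 and 1926 with GC, 3118, 3718, 3154, 1943 and 1966 in GR KO controls and 1102, 1310, 1754, 1895 and 1575 with GC. Krt14 was the most abundant of them except in parental GC-treated tumors, where Lor was. The GR KO controls were highest but for parental control tumor 5, and Cdkn1a correlated with this sum at 0.796 over the 20 tumors (Spearman 0.806), 0.608 after subtracting group means and 0.663 without the farthest 2. The summed level of 6 fibroblast markers, none at 0 and led by Col3a1 or Col1a1, was 6575, 7364, 6681, 7388 and 6747 CPM in parental controls, 10787, 7940, 10664, 7486 and 10617 with GC, 3505, 3795, 4412, 6848 and 4986 in GR KO controls and 9734, 7934, 11165, 7081 and 10482 with GC. It ran against Cdkn1a (−0.810, Spearman −0.726, −0.689 after subtracting group means, −0.705 without the farthest 2) and with Cdkn1b (0.776, Spearman 0.716, 0.875 after subtracting group means, 0.689 without the farthest 2). The line itself expresses fibroblast markers in culture, where the sum was 175 to 289 CPM in parental and 63.7 to 88.3 CPM in GR KO cells, led by Col3a1, so this sum is not one of host cells alone. The summed level of 5 endothelial markers, none at 0 and led by Kdr, was 63.9, 53.5, 45.5, 69.3 and 46.1 CPM in parental controls, 36.2, 18.7, 26.4, 35.1 and 34.4 with GC, 93.7, 83.6, 103, 107 and 87.4 in GR KO controls and 50.1, 52.1, 47.8, 42.1 and 47.2 with GC. It set the GR KO controls above all other tumors, as Cdkn1a did, and correlated with Cdkn1a at 0.602 (Spearman 0.460), −0.128 after subtracting group means and 0.610 without the farthest 2. The sum of 5 erythroid markers, none at 0 and led by Hbb-bs or Hba-a1, was 92.2, 112, 67.7, 165 and 153 CPM in parental controls, 80.9, 79.6, 64.4, 56.3 and 79.9 with GC, 201, 244, 192, 270 and 152 in GR KO controls and 91.9, 35.4, 54.8, 70.5 and 46.8 with GC, so 4 of 5 GR KO controls lay above all other tumors. That any of these cells carry these differences was not tested.

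Gadd45a and Gadd45g had other companions. The summed level of 7 macrophage and monocyte markers, none at 0 and led by C1qa, was 5665, 6312, 4219, 5035 and 3889 CPM in parental controls, 6354, 8058, 3758, 8923 and 5588 with GC, 9082, 8022, 5886, 7617 and 6730 in GR KO controls and 5392, 8192, 5147, 5123 and 4442 with GC. Tumors with more macrophage transcripts tended to have less Gadd45a (−0.700, Spearman −0.675, −0.751 after subtracting group means, −0.623 without the farthest 2). The neutrophil sum, led by S100a8 and with Ly6g at 0, was 22.5, 68.1, 239, 33.1 and 1235 CPM in parental controls, 14.8, 9.73, 11.2, 22.0 and 38.6 with GC, 423, 768, 264, 188 and 1014 in GR KO controls and 96.4, 49.1, 228, 196 and 129 with GC. It ran against Gadd45g (−0.608, Spearman −0.558), weakly once group means were subtracted (−0.443) or the farthest 2 tumors left out (−0.454). Cdkn1c ran with the melanocytic sum (0.609, Spearman 0.629, 0.421 after subtracting group means, 0.611 without the farthest 2), against the neutrophil sum (−0.608, Spearman −0.550, −0.158, −0.700) and against the endothelial sum (−0.598, Spearman −0.639, 0.126, −0.595). Gadd45a also ran against the melanocytic sum (−0.551, Spearman −0.630, −0.592, −0.627) and Cdkn1b against the macrophage sum (−0.625, Spearman −0.571, −0.476, −0.504). The melanocytic sum, led by Mitf, was 3.19 to 12.9 CPM in cultures and 33.9 to 109.98 CPM in tumors. It therefore cannot be taken as the share of tumor cells. Cdkn1a ran with the neutrophil sum (0.578, Spearman 0.594, 0.339, 0.655), and Cdkn1b against the keratinocyte sum (−0.552, Spearman −0.615, −0.251, −0.413). With group means subtracted, Cdkn1c ran with the dendritic-cell sum (0.672, against 0.149 before). That sum was led by Zbtb46, with group means of 16.5 to 33.5 CPM in tumors. The line itself expresses Zbtb46 in culture, with group means of 8.06 to 11.6 CPM, so this sum is not one of host cells alone. For Gadd45b the largest Pearson value was 0.551, with skeletal muscle markers (0.410 without the farthest 2). Its largest Spearman value was 0.564, with T and NK cells, and its largest after subtraction 0.552, with B cells. These correlations were picked from 12 cell types compared, they describe tumors that share groups, and a contribution of these cells was not tested.

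**Figure D2:**
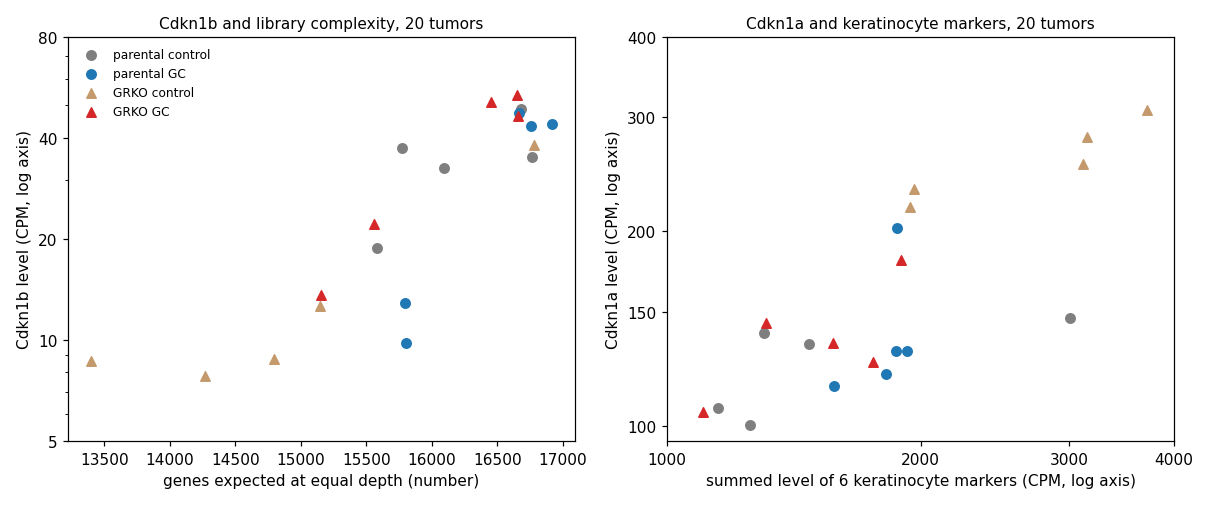
Left, Cdkn1b level (CPM) against the number of genes expected at equal depth in the 20 tumors; right, Cdkn1a level (CPM) against the summed level of 6 keratinocyte markers (CPM) in the same tumors, on log axes. Each point is a tumor, and 4 of the 5 GR KO control tumors sit at the low end of the left panel, at 13399 to 15142 genes.

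The cultures, which the choice of members did not use, hold no host cells and ask what GC does to the line alone. Gadd45a gave 8, 10 and 18 counts with DMSO and 36 and 18 with GC in parental cells, and in GR KO cells 8, 36 and 13 with DMSO, then 24, 11 and 1 with GC, which is 0.0625 to 2.55 CPM. Gadd45b measured 9.17, 5.02 and 6.23 CPM with DMSO and 10.8 and 8.29 with GC in parental cells, and in GR KO cells 14.1, 14.4 and 12.9 with DMSO, then 15.6, 10.0 and 8.56 with GC. Gadd45g measured 207, 216 and 180.1 CPM with DMSO and 275 and 329 with GC in parental cells, and in GR KO cells 215, 205 and 261 with DMSO, then 239, 258 and 289 with GC. Gadd45a overlapped in every pair of culture groups, Gadd45b with DMSO was higher in every GR KO than in every parental culture, and Gadd45g was higher in both GC-treated parental cultures than in any DMSO culture of these cells. Cdkn1a measured 417, 516 and 413 CPM with DMSO and 366 and 399 with GC in parental cells, and in GR KO cells 479, 411 and 442 with DMSO, then 450.3, 557 and 544 with GC. Cdkn1b measured 38.6, 19.0 and 40.7 CPM with DMSO and 50.4 and 41.3 with GC in parental cells, and in GR KO cells 35.3, 45.0 and 31.5 with DMSO, then 39.8, 28.2 and 17.8 with GC. Both GC-treated parental cultures lay below every parental DMSO culture for Cdkn1a and above every one for Cdkn1b. The two-sided exact permutation p was 0.3 for Cdkn1a and 0.4 for Cdkn1b. Under GC, Cdkn1a was higher and Cdkn1b lower in every GR KO culture than in both parental ones (two-sided exact permutation p 0.2 for each). The share of all genes that separate culture groups of 2 or 3 in this way was not counted. Nothing is therefore read from such separation alone. Cdkn1c was at the limit of counting, with 0, 9 and 2, then 12 and 2 counts in parental cells and 3, 2 and 1, then 6, 4 and 2 counts in GR KO cells. It was too low to enter the edgeR fit to cultures, and its two-sided exact permutation p between culture groups was 0.2 to 0.8.

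With GC in parental cultures, 0 of the 5 members tested were called by edgeR or DESeq2 and 1 had an unadjusted p under 0.05 with either tool, where 0.878% of the 12525 genes tested were called by edgeR (110 genes). Gadd45g, in 2 of 2 treated cultures, differed by 0.58 (log2, SE 0.16, edgeR adjusted p 0.185, two-sided exact permutation p 0.1, the smallest that 2 against 3 can give). It was called only with genes expected at equal depth as an added term (0.65, adjusted p 0.0246, in a range of 0.0246 to 0.654 over 15 alternatives), the one chosen after seeing the data. The estimates for Gadd45a (1.14, SE 0.93), Gadd45b (0.48, SE 0.30), Cdkn1a (−0.24, SE 0.16) and Cdkn1b (0.47, SE 0.34) had adjusted p of 0.685 to 0.712. Over the alternatives, with none called, Gadd45a ran from 0.15 to 1.75 and Gadd45b from 0.28 to 0.73. Cdkn1a ran from −0.31 to −0.13 and Cdkn1b from 0.19 to 0.66. In GR KO cultures 0% of the genes tested were called by edgeR (237 genes at an unadjusted p under 0.05) and 0 by DESeq2 (269 genes), and 0 of 5 members were called or had an unadjusted p under 0.05 with either tool. Their estimates there ran from −0.53 for Gadd45a (SE 0.86) to 0.26 for Cdkn1a (SE 0.14), with an adjusted p of 0.976 for each. The difference between the GC effects was called for 0 of 5 members by both tools, with 1 member at an unadjusted p under 0.05 in each, where 0.295% of genes were called (37 genes). For Gadd45a that difference was 1.67 (SE 1.27, adjusted p 0.597) and for Gadd45g 0.34 (SE 0.22, adjusted p 0.576). It ran from 0.68 to 2.75 for Gadd45a over 19 alternatives and from 0.21 to 0.47 for Gadd45g over 20. These tests do not show that the cultured cells lack such responses.

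Between genotypes in culture, 1 of 5 members was called with DMSO, where 8.22% of genes were called (1030 genes). Gadd45b was higher in 3 of 3 GR KO cultures (log2 1.01, SE 0.27, edgeR adjusted p 0.0409, two-sided exact permutation p 0.1, the smallest that 3 against 3 can give). This call was lost in 7 of 16 alternatives, with adjusted p from 0.00421 to 0.127, among them the leave-outs of parental DMSO cultures 2 and 3 (0.124 and 0.103) and of GR KO DMSO cultures 1, 2 and 3 (0.107, 0.127 and 0.0838). With GC, 0 of 5 members were called by edgeR or DESeq2, 1 had an unadjusted p under 0.05 with either tool, and 5.55% of genes were called by edgeR (695 genes). Gadd45b was then 0.28 higher (SE 0.30, adjusted p 0.724) and Cdkn1a 0.47 higher (SE 0.16, adjusted p 0.125). Over 15 alternatives these differences ran from 0.010 to 0.60 for Gadd45b and from 0.24 to 0.57 for Cdkn1a. The Cdkn1a difference of GR KO control tumors was not called with DMSO (−0.03, SE 0.14, adjusted p 0.929), with groups that overlapped.

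Across the 8 groups the members fell into distinct orders. Gadd45a ran in mean from GR KO GC-treated cultures (0.662 ± 0.682 CPM, SD, n = 3) through parental DMSO, GR KO DMSO and parental GC-treated cultures to parental GC-treated tumors (8.16 ± 2.04, n = 5), GR KO controls (12.5 ± 2.73), parental controls (29.8 ± 16.1) and GR KO GC-treated tumors (30.2 ± 15.1). Only the step from cultures to tumors was free of overlap, so 6 of 7 neighbors overlapped. Gadd45g and Cdkn1a ran the other way, with every tumor below every culture. Differences between tumors and cultures were common. Of the 16273 genes tested, 46.7% were called between untreated parental tumors and cultures, and 54.8% between GR KO ones. The share of all genes free of overlap was not counted, so such separation is not a trait of these members. Gadd45g ran from parental controls (30.5 ± 4.92 CPM, n = 5) through GR KO controls and GR KO GC-treated tumors to parental GC-treated tumors (85.1 ± 11.2), then parental DMSO (201 ± 18.6, n = 3), GR KO DMSO, GR KO GC-treated and parental GC-treated cultures (302 ± 37.9, n = 2), with 5 of 7 neighbors overlapping. Cdkn1a ran from parental controls (125 ± 20.7 CPM, n = 5) through GR KO and parental GC-treated tumors to GR KO controls (259 ± 36.5), parental GC-treated cultures (383 ± 23.7, n = 2), GR KO DMSO, parental DMSO and GR KO GC-treated cultures (517 ± 58.5, n = 3), with 4 of 7 neighbors overlapping. For Gadd45b, Cdkn1b and Cdkn1c all 7 neighbors overlapped. Gadd45b ran from parental GC-treated tumors (4.00 ± 1.11 CPM) to GR KO DMSO cultures (13.8 ± 0.789), Cdkn1b from GR KO control tumors (15.2 ± 12.985 CPM) to parental GC-treated cultures (45.8 ± 6.45), and Cdkn1c from the 4 culture groups (means of 0.105 to 0.471 CPM) to parental GC-treated tumors (12.2 ± 4.13).

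Untreated tumors were compared with untreated cultures of the same cells, a contrast that combines growth in the mouse, host cells and a separate RNA preparation. Gadd45a and Gadd45g were chosen on values of these control tumors, so they are described with no test. In parental cells Gadd45a levels of 5 of 5 tumors lay above every culture (log2 5.30, SE 0.67) and Gadd45g levels of 5 of 5 tumors lay below (−2.72, SE 0.20). Cdkn1c reached the filter's 0.5 CPM in 3 libraries only through tumors, so it too is described with no test. It was higher in 5 of 5 tumors, 4.53 to 8.18 CPM against 0, 9 and 2 counts, with no fold given against so few counts. Of the members tested Cdkn1a was called, where 46.7% of the 16273 genes tested were called (7595 genes). Cdkn1a was lower in 5 of 5 tumors (−1.84, SE 0.19, edgeR adjusted p 1.4e-09). Its two-sided exact permutation p was 0.0179, the smallest that 5 against 3 can give. Gadd45b (−0.03, SE 0.37, adjusted p 0.957) and Cdkn1b (0.08, SE 0.51, adjusted p 0.913) overlapped.

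In GR KO cells all members tested, Cdkn1a, Gadd45b and Cdkn1b, were called, where 54.8% of the genes tested were called (8917 genes), so most genes differ in this contrast. Gadd45a, with no test, lay higher in 5 of 5 tumors (log2 3.66, SE 0.61, or 4.41 without GR KO DMSO culture 2), and Gadd45g lay lower in 5 of 5 (−2.32, SE 0.20). Cdkn1c, again with no test, was higher in 5 of 5 tumors, 0.793 to 13.1 CPM against 3, 2 and 1 counts, with no fold given against so few counts. Cdkn1a (−0.78, SE 0.19, edgeR adjusted p 0.000720) and Gadd45b (−1.11, SE 0.37, adjusted p 0.0111) were lower in 5 of 5 tumors than in any culture. Cdkn1b was lower in 4 of 5 tumors (−1.29, SE 0.50, adjusted p 0.0283, two-sided exact permutation p 0.0714) and by more without GR KO control tumor 4 (−1.998). Its call was lost in 6 of 16 alternatives, with adjusted p from 0.000407 to 0.0786: without GR KO control tumors 1, 2, 3 and 5 (0.0654, 0.0659, 0.0527 and 0.0674) and without GR KO DMSO cultures 1 and 2 (0.0511 and 0.0786). Gadd45b and Cdkn1b were called in GR KO cells and not in parental cells, a difference that was not itself tested.

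Members also had few partners among themselves. Over the 20 tumors, which share groups, Gadd45a and Gadd45g correlated at −0.667 (Spearman −0.680), in part because the choice of members set them opposite, and at −0.309 once group means were subtracted. Cdkn1a and Cdkn1b correlated at −0.783 (Spearman −0.765) and at −0.707 after subtraction. The genes most like each member over the tumors, of all 15919 tested, were Plau, Hes1 and Rcn2 for Gadd45a (Pearson 0.90, 0.90 and 0.87, and 0.84, 0.75 and 0.77 after subtracting group means), and Pctp, Fam46b and Plin5 for Gadd45g (0.89, 0.87 and 0.87, and 0.79, 0.47 and 0.75). Gadd45b resembled Rab26, Tnfrsf9 and Cd7 (0.77, 0.75 and 0.73, and 0.72, 0.69 and 0.63). Cdkn1a resembled Flot1, Whsc1 and Etf1 (0.93, 0.91 and 0.91, and 0.82, 0.75 and 0.88), and Cdkn1c resembled Layn, Csnk1g3 and 9430020K01Rik (0.87, 0.83 and 0.81, and 0.74, 0.79 and 0.63). Cdkn1b resembled Rps27a, Tspan18 and Proser1 most closely (0.96 each, and 0.96, 0.94 and 0.95). These are the highest of many correlations and describe these tumors alone.

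Lists of genes around the members gave context. Over all genes tested, edgeR called 0.779% with GC in parental tumors, 6.42% in GR KO tumors and 0.195% for the difference. The shares were 2.25% between control tumors, 0.634% between GC-treated tumors, and 0.878% and 0% with GC in parental and GR KO cultures. Nothing is read about a list from a count near these shares. Of 29 p53 target genes tested, 1 was called higher with GC in parental tumors, Ddit4 (log2 1.77, edgeR adjusted p 0.000591, 5 of 5 tumors), and the list median was −0.21 against 0.00 for all genes. In GR KO tumors Ddit4 (1.19) and Sesn1 (1.54) were called with GC, Sesn1 not without GR KO GC-treated tumor 5, with a list median of 0.06 against 0.05. Where Cdkn1a was higher, in GR KO control tumors, 1 p53 target was called, Aen (1.37), lost in 6 of 10 leave-outs, and the list median was −0.02 against −0.04. In GR KO against parental GC-treated tumors 1 was called, Pmaip1 (2.43, adjusted p 0.00211), kept in 10 of 10 leave-outs. Of 15 cyclins and CDKs, Ccnd2 (1.01) and Ccnd3 (0.85) were called higher in GR KO control tumors, lost in 6 and 9 of 10 leave-outs, and lower with GC in GR KO tumors (−0.93 and −0.97), lost in 3 and 2 of 10. Both contrasts share the GR KO control tumors, so these opposite calls are not independent. Of 20 proliferation genes, Plk1 was called lower with GC in parental tumors (−1.04, lost without parental control tumor 5), where the list median was −0.44 against 0.00 for all genes. There 10 had an unadjusted p under 0.05 with edgeR and with DESeq2, which called 2. With GC in GR KO tumors Mcm4 (1.44) was called higher and E2f1 (−0.98) lower, lost in 6 and 5 of 10 leave-outs. Under GC 19 of 20 proliferation genes stood higher where GR was knocked out, the list median being 0.46 against 0.01 and 0 called by edgeR (9 at an unadjusted p under 0.05, as with DESeq2, which called 1).

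Factors and partners that act with the members were counted in the same way. Of 22 such factors, Cebpd was called higher with GC in parental tumors (log2 1.66, edgeR adjusted p 0.00355) and lower in GR KO than in parental GC-treated tumors (−1.66, adjusted p 0.00479), in 10 of 10 leave-outs each. Cebpd is also on the list of 12 GC-induced genes counted below, so it enters both counts. Egr1 was called lower with GC in parental tumors (−1.07) and higher in GR KO GC-treated tumors (1.24), lost in 5 and 2 of 10 leave-outs. Rela and Ddit3 were called higher in GR KO control tumors (1.03 and 1.28, lost in 3 and 5 of 10) and lower with GC in GR KO tumors (−1.28 and −1.13, lost in 0 and 3 of 10). Both contrasts share the parental GC-treated tumors for Cebpd and Egr1 and the GR KO controls for Rela and Ddit3. The opposite calls of each gene are therefore not independent. Of 12 GADD45 partners in p38 and JNK signaling, edgeR called Map3k5 alone within tumors (−0.77 with GC in GR KO tumors, lost in 5 of 10 leave-outs), and of 13 genes of p21 and p27 turnover Usp19 alone (−0.76 in the same contrast, lost in 6 of 10). DESeq2 also called 2 of the 12 for the difference between the GC effects and 1 between control tumors, and 1 of the 13 between control tumors. Of the 22 factors, DESeq2 called 5 for the difference between the GC effects and edgeR 0, with 9 and 8 at an unadjusted p under 0.05. Of 10 partners in repair and demethylation, and of 10 INK4 and other brakes, 0 were called by edgeR in any contrast within tumors. At an unadjusted p under 0.05 there were 2 to 5 of the first list and 1 or 2 of the second per contrast, and DESeq2 called at most 1 of either. Against cultures, 16 of 20 proliferation genes were called lower in parental tumors and 15 in GR KO tumors (medians −1.04 and −1.01 against 0.37 and 0.33), while of 29 p53 targets 8 were higher and 11 lower in parental cells, and 8 and 12 in GR KO cells. Over all genes tested 30.4% were called higher and 16.2% lower in parental tumors than cultures, and 34.2% and 20.6% in GR KO ones. Of 12 GC-induced genes 7 were called higher with GC in parental tumors and 5 in GR KO tumors (medians 1.59 and 0.97), and of the 11 tested in cultures 8 in parental and 0 in GR KO cultures by edgeR and DESeq2, with 0 at an unadjusted p under 0.05 by either.

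The genes lie apart in the genome (GRCm38): Gadd45a on chromosome 6 at 67035096 to 67037457, Gadd45b on chromosome 10 at 80930073 to 80932204, Gadd45g on chromosome 13 at 51846678 to 51848468, Cdkn1a on chromosome 17 at 29090976 to 29100727, Cdkn1b on chromosome 6 at 134920401 to 134925513 and Cdkn1c on chromosome 7 at 143458339 to 143461050. Annotated genes on the opposite strand overlap Gadd45a (E230016M11Rik, 556 counts in 31 libraries and at most 49 in 1), Cdkn1a and Cdkn1c, and as the counting by its default ignores strand, their reads cannot be told apart where they overlap. Promoters were searched for 6 motifs on both strands, in 32851 mouse promoters that reach from 250 bases before a transcription start to 50 after it, and 5 of 6 members had an entry (Cdkn1c had none). A CCAAT box is in 37.4% of all promoters, a TATA box (TATAAA) in 13.6%, a GR-site core (AGAACA) in 19%, an E-box (CACGTG) in 7.15%, an octamer core (ATGCAAA) in 4.63% and a p53-site core (ACATGTC) in 2.01%. No AGAACA was found in any member's promoter. The Gadd45a promoter (chromosome 6, 67037358 to 67037657, minus strand) is 61% GC and holds a CCAAT box at −86 and the octamer core at −70 and, reversed, at −96. The Gadd45g promoter (chromosome 13, 51846425 to 51846724, plus strand) is 62.3% GC and holds an E-box at −142, a reversed octamer core at −102, a CCAAT box at −78 and a TATA box at −27. The upstream Cdkn1a promoter (chromosome 17, 29090729 to 29091028, plus strand) is 54.7% GC and holds the p53-site core at −49 and, reversed, at −40. The downstream Cdkn1a promoter (chromosome 17, 29093519 to 29093818, plus strand) is 64.7% GC and holds none of the 6 motifs. The Gadd45b promoter holds CCAAT boxes at −139 and −100, a TATA box at −46 and an E-box at −185, and the Cdkn1b promoter holds CCAAT boxes at −161 and −35 and, reversed, at 46. Capitals mark the matches in the sequences, read along each gene.

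Gadd45a promoter: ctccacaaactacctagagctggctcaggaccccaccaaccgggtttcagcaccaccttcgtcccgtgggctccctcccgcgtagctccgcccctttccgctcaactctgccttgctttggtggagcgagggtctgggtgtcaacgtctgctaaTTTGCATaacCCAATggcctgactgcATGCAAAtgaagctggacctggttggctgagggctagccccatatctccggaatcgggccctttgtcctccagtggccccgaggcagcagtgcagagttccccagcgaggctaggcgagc

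Gadd45g promoter: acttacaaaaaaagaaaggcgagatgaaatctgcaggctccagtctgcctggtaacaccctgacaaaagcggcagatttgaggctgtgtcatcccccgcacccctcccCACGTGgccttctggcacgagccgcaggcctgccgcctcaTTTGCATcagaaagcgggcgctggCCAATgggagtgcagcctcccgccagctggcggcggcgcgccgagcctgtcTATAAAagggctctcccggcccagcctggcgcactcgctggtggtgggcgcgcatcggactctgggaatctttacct

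Cdkn1a upstream promoter: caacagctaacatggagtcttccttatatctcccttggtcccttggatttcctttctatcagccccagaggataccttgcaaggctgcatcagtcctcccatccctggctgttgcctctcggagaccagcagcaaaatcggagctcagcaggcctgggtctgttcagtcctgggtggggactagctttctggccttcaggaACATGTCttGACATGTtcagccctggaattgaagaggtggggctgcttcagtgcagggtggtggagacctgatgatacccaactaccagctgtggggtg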

How the data were processed

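Whole tumors (20) and cultures (11) were measured by QuantSeq 3′ FWD libraries, single libraries per animal or culture. The authors trimmed reads, aligned them with STAR to the mouse genome (GRCm38) and counted them with featureCounts, and deposited integer counts per gene, used here. Default settings apply by the methods where no other is named, and that of featureCounts ignores strand. The sex and age of mice are not given. The members and the gene lists were chosen with earlier results of these data known.

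From the counts, genes with at least 0.5 CPM in 3 libraries were fitted with edgeR 4.0.16 (R 4.3.3, limma 3.58.1): 15919 genes in 4 tumor groups, 12525 in 4 culture groups and 16273 over all 8 groups. TMM scaling, the quasi-likelihood test and Benjamini-Hochberg adjustment over all genes tested were used, after the fit was tested on simulated data. CPM levels share a TMM scale over 31 libraries. Two-sided exact permutation tests compare mean log2(CPM + 1). Correlations use log2(CPM + 1), and marker levels are sums of CPM. The number of genes expected at equal depth is the expectation on drawing 15528066 reads (tumors) or 14441166 (cultures).

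From each of 9 lists, up to 3 called genes per contrast and direction qualified for naming, by smallest adjusted p, and per member the 3 genes with the highest Pearson correlation. Alternatives were DESeq2 1.42.0, other scalings, filters, fold minimums and pseudocounts (0.1), only the groups compared, a replicate-number block, each library left out, and, added after seeing the data, genes expected at equal depth as a term. Promoters are those of RefSeq transcripts on GRCm38.p6, and gene coordinates are GENCODE's on GRCm38.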

Additional observations from a re-analysis of the deposited data

Results flagged for a closer look

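Cdkn1a in parental GC-treated tumor 4 (202 CPM) lay far above the other 4 tumors of its group, with a gap of 0.776 of the group's whole range on the log2(CPM + 1) scale. This was 1 of 24 groups searched, and chance gives such a gap in about 1 in 20 groups. Without this tumor the genotype difference of Cdkn1a under GC was 0.18 (log2) and not called.

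The GC effect differed between the genotypes, by the test of the difference itself, for a GC-induced gene in tumors, Mt1 (1.90, edgeR adjusted p 0.0223), where the call was lost in 4 of 20 leave-outs (parental control tumor 3, parental GC-treated tumor 4, GR KO control tumor 2 and GR KO GC-treated tumor 5). In cultures it differed for Mt2 (3.70, adjusted p 3.5e-05), Tsc22d3 (3.14, adjusted p 0.000332) and Per1 (3.00, adjusted p 0.00415), each in 11 of 11 leave-outs.

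The values come from 3′ tags of bulk RNA, so protein levels, which set much of p27 activity, were not measured. Host and tumor cells were not separated. The knockout was a clone, so clone and genotype cannot be told apart. Groups held 2 to 5 libraries, the cultures cannot reach a permutation p below 0.1 between culture groups, and Cdkn1c in cultures and Gadd45a at 1 to 36 counts there are near the limit of counting.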

How the results depend on the processing

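Each result was recomputed under the alternatives. Member levels moved by less than the spread between replicates (SD) in all 96 comparisons with other scalings. The 186 leave-outs did so too, but leaving out 1 library cannot move a group mean by more than that spread, so nothing is read from them. The 48 exact tests stayed on their side of the threshold with a pseudocount of 0.1. Those between culture groups could not do otherwise, as their p cannot go below 0.1. The 48 also include comparisons that are described above with no test. Of the member differences, 607 stayed, 7 lost a call, 4 gained a call and 8 changed sign under other settings, and 581, 21, 2 and 17 did so without a library. These counts include differences described with no test, those of Gadd45a and Gadd45g between tumor genotypes and of Gadd45a, Gadd45g and Cdkn1c between tumors and cultures. The lost and gained calls named beside each result are joined by Cdkn1a between GR KO tumors and cultures, lost at a fold minimum of 2, and by Gadd45b between DMSO cultures with library totals (adjusted p 0.0548) and at least 10 counts in every library (0.0510). List counts stayed within 1.5 times in 4516 comparisons and moved in 272, and in 4299 and 279 without a library. The genes most like a member changed in 10 of 12 comparisons with other measures.

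Signs changed only for differences that were not called. They were Gadd45b between control tumors with genes expected as a term (0.048), and Cdkn1a between GC-treated tumors with library totals (0.043), at least 10 counts (0.0030), the replicate-number block (0.00046) and only these groups (0.0030). Further ones were Cdkn1a between DMSO cultures with library totals (0.0031), and Gadd45b between parental tumors and cultures with library totals (0.077) and at least 10 counts (0.044). Leaving out a library changed signs for Gadd45b between control tumors (−0.26 to 0.083), Cdkn1a between GC-treated tumors (−0.12 to 0.18), Gadd45a with GC in GR KO cultures (−1.61 to 0.23), Gadd45a (−0.39 to 0.73), Cdkn1a (−0.085 to 0.097) and Cdkn1b (−0.089 to 0.36) between DMSO cultures, and Gadd45b (−0.21 to 0.24) and Cdkn1b (−0.20 to 0.26) between parental tumors and cultures.

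The number of genes called moved more. DESeq2 called 376 genes for GC in parental tumors, 1756 in GR KO tumors, 784 for their difference, 1001 and 293 between control and GC-treated tumors, 251 for GC in parental cultures and 128 for the difference in cultures. With genes expected as a term, chosen after seeing the data, these counts were 526, 217, 15, 51, 362, 190 and 68, and 2790 between DMSO cultures. A fold minimum of 2 left 583 for GC in GR KO tumors and 238 between control tumors. With only the groups compared, fewer samples and fewer genes tested gave 391 for GC in GR KO tumors, 159 between control tumors, 59 for GC in parental cultures and 230 between GC-treated cultures. Library totals gave 10 for the difference in tumors, and shifted the median of all genes by 0.26 for GC in GR KO tumors. No filter gave 49 and 64 for the differences in tumors and cultures. At least 10 counts in every library gave 66 for the difference in tumors, 661 and 445 between DMSO and between GC-treated cultures, and 4431 and 5081 for parental and GR KO tumors against cultures, with fewer genes tested. The replicate-number block gave 144 for the difference in tumors, 160 between GC-treated tumors and 63 for GC in parental cultures. Deviations of libraries sharing a number correlated at a mean of 0.0583 in 30 tumor pairs and 0.0198 in 15 culture pairs, with 16 of the 30 (−0.543 to 0.415) and 7 of the 15 (−0.552 to 0.620) over 0.1, so a pairing by number was not established. Except where fewer genes or samples are named, the cause was not tested.

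Without a library the counts ranged from 60 to 178 for GC in parental tumors (parental control tumors 3 and 2), 303 to 2411 in GR KO tumors (GR KO GC-treated tumor 3, GR KO control tumor 4), 0 to 1284 for their difference (parental control tumor 3, GR KO control tumor 4), 61 to 1762 between control tumors (GR KO control tumors 2 and 4) and 40 to 114 between GC-treated tumors (GR KO GC-treated tumor 5, parental GC-treated tumor 1). In cultures they ranged from 31 to 78 for GC in parental cells, 0 to 0 in GR KO cells, 17 to 43 for the difference, 594 to 916 with DMSO and 322 to 842 with GC between genotypes, and against cultures from 6438 to 7460 for parental and 7680 to 9266 for GR KO tumors.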
